A study of Mus musculus with 3 samples.

Results

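CD8+ T cells without the type II TGF-β receptor that did not carry NK1.1, a receptor typical of natural killer (NK) cells, were compared with NK1.1- CD8+ T cells of littermates that kept the receptor. Each group was measured on 1 Affymetrix mouse 430 2.0 array. The receptor-deficient cells came from mice with both Tgfbr2 copies floxed and Cre recombinase driven by Cd4 regulatory sequences (Tgfbr2 fl/fl x CD4-Cre, KO). The control cells came from littermates with 1 floxed and 1 wild-type copy and the same Cre (Tgfbr2 fl/WT x CD4-Cre), so both groups carried Cre and at least 1 floxed allele. An age of 15 to 17 days is listed for the mice of both groups. The cells were FACS-sorted, and how many mice stood behind each array is not given in the sources. The study's description calls the control cells NK1.1- in one place and unfractionated CD8+ cells in another, which leaves unclear how those cells were gated. A further array, of NK1.1+ KO cells, completed the series of 3 arrays. It entered only the choice of a probe set per gene, the level below which a value was not used, and a few values set beside a result.

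All 18193 genes with a probe set of a single symbol were compared, and 10047 of them were measured on at least 1 of the 2 arrays. Measured means at or above an intensity of 9.66, the 95th percentile of 145 probe sets of genes such as olfactory receptors and lens crystallins that T cells are not known to express. Of the measured genes, 9238 were measured on both arrays, 462 on the KO array only and 347 on the control array only, and 8146 were measured on neither. A value under the level was replaced by the level for the fold, and such a fold is written "at least". Variation between mice cannot be seen with 1 array per group, so differences were not tested, and a gene is described as higher or lower where the difference reached 2-fold. Members of a list named beyond the 4 with the largest differences were chosen after their values were seen. The lists themselves were drawn up with earlier results of these data known, so their counts describe and do not test. Some genes, such as Itgae, Ccr9 and St8sia6, stand in more than 1 list, so the lists are not separate results. In the values below, the intensity in KO cells comes first and that in control cells second.

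TGF-β signals through a complex of type I and type II receptor kinases that phosphorylate SMAD proteins, which then enter the nucleus and act on target genes. Among those targets are the pathway's own inhibitors, such as Smad7 and Skil. In T cells the pathway is known to restrain proliferation and effector differentiation and to induce the integrin subunit encoded by Itgae. CD8+ T cells that have not met antigen are quiescent and carry homing receptors for lymph nodes. After activation they divide, lose those receptors and acquire granzymes, perforin and interferon γ.

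Of the measured genes, 809 (8.05%) were at least 2-fold higher in KO cells and 559 (5.56%) at least 2-fold lower. These shares are the background for each count of list members below. Folds of 105 of the higher and 64 of the lower genes are lower bounds. The higher side reached further: 241 genes were higher by 4-fold or more against 86 lower, 60 against 21 by 8-fold or more, and 6 against 1 by 32-fold or more. The median log2 difference of measured genes, KO minus control, was 0.011, and 69.1% of them lay within 1.5-fold. Just inside the threshold lay Rras, at 65.3 against 32.7, and Pus1, at 74.0 against 148. Just outside it lay Snhg3, at 205 against 103, and Arhgap9, at 986 against 1972.

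**Figure D1:**
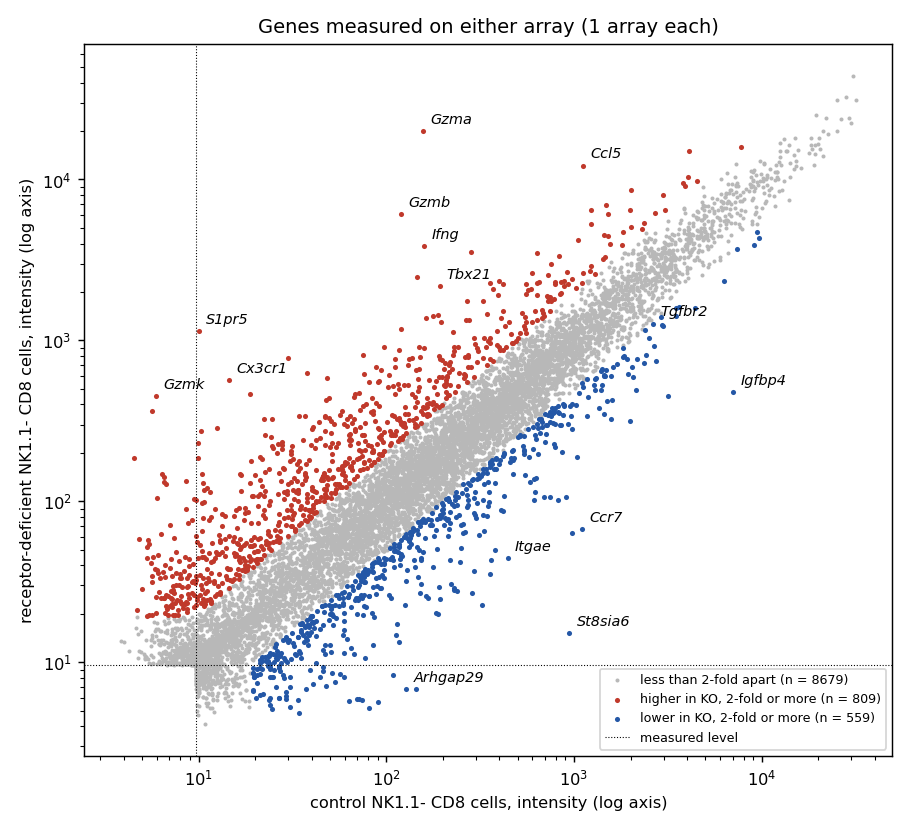
Intensity of each measured gene in control cells (x axis) and in receptor-deficient cells (y axis), both on log axes, 1 array each. Genes higher by 2-fold or more are red (n = 809), lower blue (n = 559), and dotted lines mark the measured level of 9.66; Gzma and S1pr5 lie farthest above the diagonal and St8sia6 farthest below it.

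The only repeat measurement on these arrays is that some genes are read by several probe sets, which share the RNA and the array. In the 4542 genes that had 2 or more of them measured, the log2 differences within a gene had a pooled SD of 0.46. Of 373 higher genes with several measured probe sets, 344 had them all in the same direction and 137 had all at 2-fold or more. Of 228 lower genes the numbers were 180 and 65. The other 436 higher and 331 lower genes rested on a single measured probe set. Calls were most frequent at low to middle intensity. Of 5 equal classes of measured genes by mean level, the one above the dimmest had the highest shares: 12.6% were higher and 8.86% lower, against 4.98% and 2.94% in the brightest class. In the dimmest class, where 779 of 2010 genes were below the level on 1 array, the shares were 6.72% and 4.98%.

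**Figure D2:**
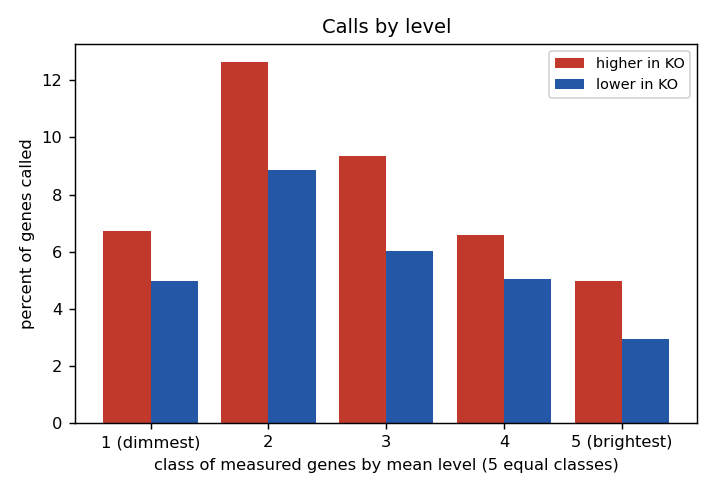
Percent of measured genes called higher (red) or lower (blue) by 2-fold or more in 5 equal classes of the mean level, from dimmest to brightest. Higher calls outnumber lower calls in all 5 classes, and both shares are lowest in the brightest one, at 4.98% and 2.94%.

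Technical controls were not equal on the arrays. The 9 probe sets of hybridisation controls had a median log2 difference of -0.23, and the 12 probe sets of poly-A controls one of -1.40. The 3′ probe set of Actb exceeded its 5′ probe set 12.3-fold in KO cells and 6.02-fold in control cells, and that of Gapdh 26.7-fold and 17.8-fold. Their part in the differences between genes was not tested. The defining markers of CD8+ T cells Cd3d, Cd3e, Cd3g, Cd8a and Cd8b1 were bright on both arrays, and none differed by 2-fold in its brightest probe set. Cd8a read 1027 against 1786 (1.74-fold lower), and another of its 5 measured probe sets differed by -1.45 on the log2 scale. Cd4 read 378 in KO and 344 in control cells. The brightest Tgfbr2 probe set read 1271 against 2634 (2.07-fold lower), and its other 2 lay below or around the level. A probe set outside the deleted part would check nothing. The probe set assigned to both Klrb1b and Klrb1c, the gene of NK1.1, read 52.7 on the KO array, 7.09 on the control array and 1618 on the NK1.1+ KO array.

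Most measured genes listed for the TGF-β pathway's own negative feedback and known targets in T cells were lower. The list was drawn up with earlier results of these data known, so its counts are a description. Of 18 genes on the array 14 were measured, 9 were lower and 1 was higher, at a median log2 difference of -1.32. Itgae, the α subunit of the integrin that binds E-cadherin on epithelium, read 44.6 against 444 (9.97-fold lower). Pmepa1, whose product sequesters receptor-regulated SMADs, read 17.2 against 114 (6.59-fold lower). Smad7, the inhibitory SMAD that targets the type I receptor, read 25.7 against 162 (6.31-fold lower). Both transcriptional corepressors of SMAD complexes were lower too. Skil was bright in control cells, at 316 against 1983 (6.28-fold lower), and Ski read 48.4 against 156 (3.23-fold lower). The ubiquitin ligase genes Smurf2, at 320.3 against 667 (2.08-fold lower), and Smurf1, at 19.4 against 39.7 (2.05-fold lower), lay near the threshold. Gpr15, a homing receptor for the large intestine, read 5.17 against 80.5 (at least 8.34-fold lower). Rgs16, a regulator of G protein signalling, was the member that was higher, at 156 against 42.1 (3.69-fold higher). Klf10, also known to be induced by TGF-β, was not in this list and was higher too, with its values given under the other observations.

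Among the pathway's receptors and signal transducers, 17 of 21 genes were measured, 5 were lower and 1 was higher. When probe sets were averaged, dim ones included, 2 were lower and none higher. Tgfbr3, the coreceptor betaglycan, read 188 against 1034 (5.49-fold lower). Acvr1b, a type I receptor for activins, read 62.2 against 313 (5.04-fold lower). The type I receptor gene Tgfbr1 fell just short of the threshold at 209.5 against 418 (2.00-fold lower), and the shared SMAD gene Smad4 read 1531 against 2455 (1.60-fold lower). Smad3, the receptor-regulated SMAD, went the other way at 910.4 against 398 (2.29-fold higher), in its only measured probe set of 3. Smad2 read 261 against 282 (1.08-fold lower).

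Cytotoxic effector genes held some of the largest differences, that of Gzma being the largest of genes measured on both arrays. Of 25 genes of cytotoxic granules and killing, 21 were measured and 12 were higher, none was lower, and the median log2 difference was 1.63. The gene of the killing protease granzyme A, Gzma, read 19886 against 158 (126-fold higher). Its relatives Gzmb and Gzmk read 6098 against 120.2 (50.7-fold higher) and 451 against 5.96 (at least 46.7-fold higher). The pore-forming protein's gene Prf1 differed by much less than Gzma, Gzmb and Gzmk, at 237 against 76.8 (3.09-fold higher), in its only measured probe set of 2. Not all of the 5 measured granzyme genes exceeded it. Gzmm differed by 1.37 on the log2 scale, and the smallest granzyme difference was 0.18. Fasl, encoding the death ligand of Fas, read 815 against 75.2 (10.8-fold higher). Stx11, which acts in the release of granules, read 1134 against 227 (5.002-fold higher), and Nkg7, a granule membrane protein gene, read 4227 against 1046 (4.04-fold higher). The inhibitors that protect killer cells from their own proteases were higher with them. Serpinb9, the inhibitor of granzyme B, read 1448 against 188 (7.69-fold higher), and Serpinb6b read 909 against 96.9 (9.38-fold higher). Srgn, encoding the proteoglycan that packs granules, read 7164 against 5593 (1.28-fold higher) and Rab27a, which acts in granule docking, 677 against 419.6 (1.61-fold higher), both under the threshold.

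Of 17 measured cytokine and chemokine genes, 6 were higher and 1 was lower. Ifng, encoding interferon γ, read 3874 against 159 (24.3-fold higher). Il21, a cytokine gene better known from CD4+ helper cells, read 131 against 10.52 (12.4-fold higher). The chemokine genes Ccl5, at 12186 against 1119 (10.9-fold higher), and Ccl3, at 185 against 4.51 (at least 19.2-fold higher), were both higher. Ltb, encoding lymphotoxin β, was lower, at 529 against 1407 (2.66-fold lower).

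Of the transcription factors listed for effector differentiation, 15 of 16 measured members were higher and none lower, at a median log2 difference of 1.65. This list too was drawn up with earlier results of these data known. Bhlhe40 read 778 against 29.9 (26.1-fold higher). Tbx21, encoding T-bet, read 2170.5 against 192 (11.3-fold higher), and its relative Eomes read 2085 against 593 (3.52-fold higher). Prdm1, encoding Blimp-1, read 273 against 46.9 (5.81-fold higher), and Zeb2, which acts with T-bet in terminal effector cells, read 58.8 against 7.38 (at least 6.09-fold higher). Id2, encoding an inhibitor of E proteins, read 8641 against 2009.7 (4.30-fold higher). Irf4 and Batf lay just past the threshold, at 205 against 97.6 (2.10-fold higher) and 123 against 60.9 (2.03-fold higher). Stat4 was the exception, at 1317 against 1227 (1.07-fold higher).

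The opposing set, transcription factors of naive and memory-stem cells, had 7 of 18 measured members lower and none higher. Bach2, a repressor of effector genes, read 139.6 against 624 (4.47-fold lower). Id3 read 43.4 against 153 (3.54-fold lower) and the chromatin organiser gene Satb1 2346 against 6279 (2.68-fold lower). Foxo1, which acts upstream of lymph node homing genes, read 1405 against 2914 (2.07-fold lower), and Lef1 read 256 against 513 (2.01-fold lower). Klf2, another factor of quiescence and homing, read 1111 against 1955 (1.76-fold lower), short of the threshold. Sox4 read 102 against 612 (6.02-fold lower), and its 2 measured probe sets of 8 differed by -2.59 and -1.22 on the log2 scale.

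Surface and homing genes of naive cells were lower in 15 of 22 measured members, higher in none, at a median log2 difference of -1.75. St8sia6, a sialyltransferase gene, had the lowest value relative to control of all genes measured on both arrays, at 15.3 against 942 (61.8-fold lower), and its 3 probe sets all agreed in direction. Ccr7, the receptor gene for entry into lymph nodes, read 67.1 against 1101 (16.4-fold lower). S1pr1, the receptor gene for exit from them, read 209.7 against 539 (2.57-fold lower). Igfbp4, encoding a binding protein of insulin-like growth factors, read 479 against 7032 (14.7-fold lower), and its 5 measured probe sets differed by -3.45 to -4.96 on the log2 scale. Both chains of the interleukin-6 receptor were lower: Il6ra read 24.6 against 194 (7.86-fold lower) and Il6st 106 against 745 (7.05-fold lower). Il7r, the survival receptor gene of naive cells, read 5042 against 7648 (1.52-fold lower), under the threshold.

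In the list drawn up for immature thymocytes, 9 of 15 measured members were lower and 1 was higher, at a median log2 difference of -1.42. Some members also stand in the naive lists. The higher one, Themis2, was dim, at 56.4 against 23.0 (2.45-fold higher), and lost its call with the level at the 75th percentile. Ccr9, a thymus and gut homing receptor gene, read 36.9 against 293 (7.93-fold lower), but with only unsuffixed probe sets its log2 difference was -0.28. Cd24a, a surface protein gene of thymocytes, read 108 against 425 (3.95-fold lower), Itm2a read 685 against 2023 (2.95-fold lower) and Nsg2 770.2 against 2175 (2.82-fold lower).

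Receptors for migration differed in both directions. Of 19 measured chemoattractant receptor genes 6 were higher and 4 lower, the latter 2 with only unsuffixed probe sets, where genes without one drop out. S1pr5, the sphingosine 1-phosphate receptor gene of NK and terminal effector cells, read 1148 against 10.05 (114-fold higher). Cx3cr1, the fractalkine receptor gene, read 568 against 14.5 (39.1-fold higher). Ccr2 read 815 against 226 (3.61-fold higher) and Cxcr3, a receptor gene for interferon-induced chemokines, 4457 against 1512 (2.95-fold higher). On the other side, Ccr6 read 10.6 against 76.7 (7.23-fold lower).

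NK cell receptor genes were higher in 8 of 18 measured members and lower in 1. Klrg1, an inhibitory receptor gene of terminal effector cells, read 2326 against 397 (5.87-fold higher). Klrc1, encoding NKG2A, read 224 against 27.9 (8.03-fold higher), and Klre1 read 80.2 against 11.7 (6.85-fold higher). The partner gene of NKG2A, Klrd1, was bright on both arrays, at 5403 against 3687 (1.47-fold higher). With the level moved to the 75th percentile over all probe sets (54.0), 5 of the list were higher. Markers of NK cells were below the level in part. Ncr1 read 4.90 on the KO array and 4.86 on the control array, and Fcer1g read 5.76 and 6.17, both below the level. Tyrobp, an adaptor gene, read 52.6 against 21.6 (2.43-fold higher), against 1183 on the NK1.1+ KO array.

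Among 20 measured inhibitory and costimulatory receptor genes, 7 were higher and 3 lower. The 7 became 3 with the level at the 75th percentile and 4 with an offset of 32 added to both values in place of the level. Pdcd1, encoding PD-1, read 171 against 60.1 (2.85-fold higher), Havcr2, encoding TIM-3, 34.7 against 8.92 (at least 3.59-fold higher) and Icos 5331 against 2358 (2.26-fold higher). Nt5e, encoding the ectonucleotidase CD73, read 30.5 against 153 (5.01-fold lower), in its only measured probe set of 3. Cytokine receptor genes had 4 higher and 5 lower of 33 measured, the latter 3 when probe sets were averaged. The largest lower difference was that of Il6ra, given above among naive surface genes. The interleukin-18 receptor genes were higher, with Il18rap at 1176 against 119.5 (9.84-fold higher) and Il18r1 at 1391 against 550.2 (2.53-fold higher). Il12rb1, an interleukin-12 receptor gene, was higher too, at 51.9 against 16.8 (3.08-fold higher).

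Of 24 measured integrin and adhesion genes 6 were higher and 2 lower, at a median log2 difference of 0.24. Itgax, encoding CD11c, read 187 against 9.88 (18.9-fold higher). Itga4 and Itgb1, which pair as VLA-4, read 8022 against 2993 (2.68-fold higher) and 2606 against 596 (4.38-fold higher). Cd44, the hyaluronan receptor and activation marker, read 2056 against 568 (3.62-fold higher). Among S100, annexin and galectin genes, 12 of 24 were higher and 1 lower, at a median log2 difference of 1.04. With only unsuffixed probe sets, where genes without one drop out, 7 were higher. Lgals3 read 1376 against 162 (8.50-fold higher), S100a6 1414 against 177 (8.01-fold higher), S100a4 2279 against 357 (6.37-fold higher) and Anxa1 607 against 103 (5.91-fold higher). Lgals1, encoding galectin-1, read 15037 against 4114 (3.66-fold higher).

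**Figure D3:**
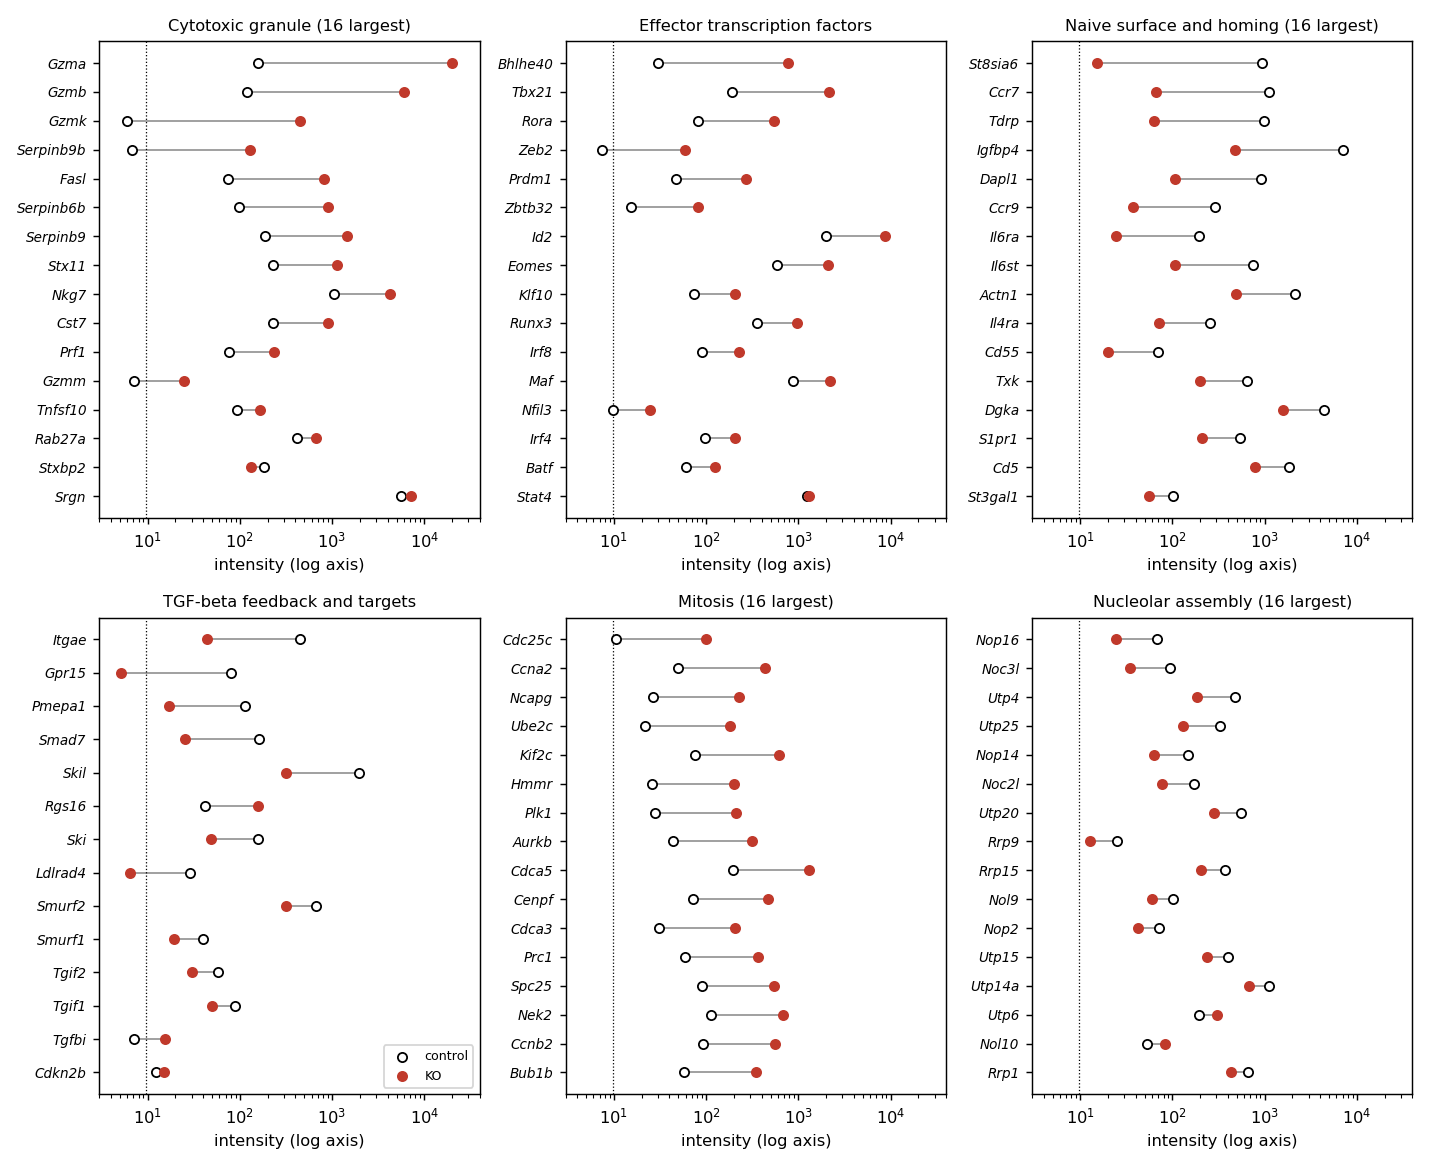
Intensity on a log axis in control (open) and receptor-deficient (red) cells, 1 array each, of the members with the largest differences in 6 groups; the dotted line is the measured level of 9.66. Mitosis, granule and effector factor genes lie to the right in receptor-deficient cells, with exceptions such as Stxbp2, and naive, TGF-β target and nucleolar genes mostly to the left.

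Genes of mitosis and cytokinesis were higher with few exceptions. Of 61 on the array 60 were measured, 54 were higher and 1 was lower, at a median log2 difference of 2.15. The lower member, Smc4, a condensin subunit gene, read 3677 against 7381 (2.01-fold lower), and the average of its probe sets, at -0.97 on the log2 scale, was short of the threshold. Cdc25c, the phosphatase gene that starts mitosis, read 99.5 against 10.6 (9.36-fold higher). Ccna2, encoding cyclin A, read 437 against 49.3 (8.85-fold higher), and Ccnb2, encoding cyclin B2, read 557 against 91.4 (6.09-fold higher). The mitotic kinase genes Plk1 and Aurkb read 213 against 27.8 (7.64-fold higher) and 312 against 44.1 (7.07-fold higher). Ncapg, another condensin subunit gene, read 229 against 26.4 (8.65-fold higher), and Ube2c, which acts in the destruction of cyclins, read 182 against 21.9 (8.33-fold higher). Hmmr, a spindle protein gene, read 199.8 against 26.1 (7.65-fold higher), but with only unsuffixed probe sets its log2 difference was 0.011. By symbol alone, 10 of 21 centromere protein genes and 10 of 24 measured kinesin genes were higher, and none was lower. These became 5 with the level at the 75th percentile and 6 with averaged probe sets.

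Genes of DNA replication were higher in 21 of 40 measured members and lower in none, at a median log2 difference of 1.03, and 39 of the 40 lay above 0. The count of higher genes was 10 when probe sets were averaged. Cdc6, which loads the replicative helicase, read 401 against 77.9 (5.15-fold higher). The helicase subunit gene Mcm5 read 4749 against 1833 (2.59-fold higher), or 0.93 on the log2 scale averaged over its 3 measured probe sets, the primase gene Prim1 1036 against 333 (3.11-fold higher) and the ligase gene Lig1 668 against 204 (3.28-fold higher). DNA repair genes were higher in 13 of 33 measured members and lower in none; 6 were higher with the level at the 75th percentile, with an offset of 32 or with averaged probe sets. Rad54l, of homologous recombination, read 337 against 47.1 (7.17-fold higher), the checkpoint adaptor gene Clspn 332 against 47.1 (7.05-fold higher) and the checkpoint kinase gene Chek1 311 against 101 (3.07-fold higher). Among cyclins, kinases and inhibitors of G1, 9 of 27 were higher and 1 lower. E2f7 and E2f8, encoding repressors among the E2F factors, read 122 against 11.1 (10.9-fold higher) and 679 against 88.1 (7.71-fold higher). Cdkn1a, encoding the cell cycle inhibitor p21, read 98.3 against 10.4 (9.46-fold higher).

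Of 23 measured genes of nucleotide supply 4 were higher, or 2 when probe sets were averaged, and 2 were lower. Of the higher ones, which act on deoxynucleotides, Tk1 read 282 against 40.3 (7.01-fold higher), the ribonucleotide reductase gene Rrm2 6431 against 1237 (5.20-fold higher), Dut 1489 against 526 (2.83-fold higher) and Rrm1 1531 against 619.8 (2.47-fold higher), whose probe sets disagreed in direction. Both lower ones, Gart at 339 against 1176 (3.47-fold lower) and Pfas at 85.2 against 292 (3.43-fold lower), act in purine synthesis from its precursors.

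The promoters of mitosis genes were searched because these genes differed together. On both strands, the letters CCAAT (read as ATTGG on the other strand) were searched, which the factor NF-Y binds. Also searched were forms of the cell cycle homology region known from mitotic promoters, namely TTTGAA (read as TTCAAA on the other strand) and the palindrome TTTAAA. The windows, from RefSeq in build GRCm38.p6, run from 250 bases before to 50 after a transcription start, and 52 of the 60 mitosis genes had 1 or more, 55 in all. The first motif stood in 72.7% of them and the second, in any form, in 78.2%, and 65.5% held both. Over the 10474 promoters of measured genes the shares were 37.6%, 19.5% and 7.56%, and over all 32851 promoters 37.4%, 27.6% and 10.7%. In 42 promoters of DNA replication genes they were 57.1%, 28.6% and 14.3%. For genes called higher the shares were 43.4%, 27.1% and 14.7%, which without the mitosis and replication lists became 41.1%, 23.7% and 11.1%. For genes called lower they were 36.6%, 21.0% and 7.72%. A match describes letters in a window and is not a binding site.

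Shown 5′ to 3′ are the windows of the 4 mitosis genes with the largest difference among those with a single window that held both motifs, with all matches in capitals. They are Ncapg (chr5:45669675-45669974, plus strand), Ube2c (chr2:164769679-164769978, plus strand), Hmmr (chr11:40733388-40733687, minus strand) and Plk1 (chr7:122159185-122159484, plus strand), all GRCm38.p6.
Ncapg: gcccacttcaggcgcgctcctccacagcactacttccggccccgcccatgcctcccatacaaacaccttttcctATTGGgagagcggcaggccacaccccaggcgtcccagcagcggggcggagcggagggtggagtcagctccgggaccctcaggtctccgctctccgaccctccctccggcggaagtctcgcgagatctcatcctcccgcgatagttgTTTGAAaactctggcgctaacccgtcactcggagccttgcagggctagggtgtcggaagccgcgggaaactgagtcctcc
Ube2c: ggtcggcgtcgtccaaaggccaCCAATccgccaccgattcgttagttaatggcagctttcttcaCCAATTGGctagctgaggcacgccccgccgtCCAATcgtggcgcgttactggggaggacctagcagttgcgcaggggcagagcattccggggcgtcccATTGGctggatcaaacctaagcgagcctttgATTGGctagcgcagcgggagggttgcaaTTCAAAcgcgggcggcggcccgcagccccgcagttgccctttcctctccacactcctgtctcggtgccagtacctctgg
Hmmr: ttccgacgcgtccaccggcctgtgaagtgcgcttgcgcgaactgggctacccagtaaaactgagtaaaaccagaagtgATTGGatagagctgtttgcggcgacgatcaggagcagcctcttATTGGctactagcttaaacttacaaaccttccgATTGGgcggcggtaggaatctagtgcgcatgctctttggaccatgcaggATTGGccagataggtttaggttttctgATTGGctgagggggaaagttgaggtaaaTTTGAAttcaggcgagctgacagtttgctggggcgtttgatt
Plk1: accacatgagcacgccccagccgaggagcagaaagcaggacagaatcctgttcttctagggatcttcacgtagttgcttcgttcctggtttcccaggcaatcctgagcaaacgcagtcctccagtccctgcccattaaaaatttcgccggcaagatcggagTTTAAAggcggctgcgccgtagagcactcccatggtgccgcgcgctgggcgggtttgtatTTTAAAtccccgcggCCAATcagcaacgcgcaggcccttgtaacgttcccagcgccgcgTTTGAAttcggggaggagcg
In Ube2c, matches of the first motif on both strands share letters once. Counted from the start site as 0, the second motif began at -30 in Ncapg, at -29 in Ube2c and at -29 in Plk1, and in Hmmr at 8; Plk1 held further ones at -89 and 30.

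Genes of protein synthesis were mixed. Of 74 measured mitochondrial ribosomal protein genes 50 lay above 0 and 24 below, none was higher and 1 was lower, at a median log2 difference of 0.14. Of 46 translation initiation factor genes 3 were higher, or none with an offset of 32, and none was lower. Of 44 measured cytosolic ribosomal protein genes 37 lay below 0 and 7 above, at a median log2 difference of -0.27, though just 1 passed 2-fold, Rpl12, at 113 against 253 (2.24-fold lower). Genes named Nop, Utp, Noc, Rrp or Nol, most of which act in the nucleolus to assemble ribosomes, were grouped after their values had been seen. Of 37 measured, 6 were lower, none was higher and 31 lay below 0, with a median of -0.47. With an offset of 32 in place of the level 2 were lower. Utp4, of the small subunit processome, read 185 against 481 (2.602-fold lower), Noc3l 34.9 against 94.5 (2.70-fold lower) and Nop14 62.5 against 147 (2.36-fold lower). Chosen likewise after their values were seen, Fbl, encoding the methyltransferase fibrillarin, read 580.4 against 1313 (2.26-fold lower), Dkc1, encoding dyskerin, 649 against 1383 (2.13-fold lower), with probe sets that disagreed in direction, and Srm, encoding spermidine synthase, 66.8 against 185 (2.77-fold lower). Myc, a growth regulator that drives ribosome assembly genes, read 45.9 against 120.5 (2.62-fold lower).

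Of 26 measured early genes of T cell activation, none was higher and 5 were lower, which became 1 with an offset of 32 and 3 with averaged probe sets. Among the 5 were Nr4a1, an indicator of recent receptor signalling, at 60.8 against 213 (3.50-fold lower), and Nr4a3, at 174 against 358 (2.05-fold lower). Nr4a2, of the same family, read 257 against 132 (1.95-fold higher). T cell receptor signalling genes had 1 higher and 4 lower of 31, beside 8.05% and 5.56% of all measured genes. Dgka, a lipid kinase gene that dampens signalling, read 1591 against 4388 (2.76-fold lower).

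In metabolism, 5 of 30 genes of sterol and fatty acid synthesis were lower, or 2 when probe sets were averaged, and none higher, among them Insig1 at 216 against 795 (3.67-fold lower) and Msmo1, of sterol synthesis, at 26.5 against 87.7 (3.30-fold lower). Of 19 genes of fatty acid oxidation 4 were higher and 1 lower, or 2 and 0 when probe sets were averaged. Cpt1a, which admits fatty acids to mitochondria, read 270.3 against 96.6 (2.80-fold higher), and with only unsuffixed probe sets its log2 difference was 0.98. Glycolysis genes had 2 of 20 higher and 1 lower, near the shares of 8.05% and 5.56% over all measured genes. All 32 complex I subunit genes were within 2-fold and 25 lay above 0, with a median of 0.26, and none of 37 proteasome subunit genes passed 2-fold.

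Caspase and inflammasome genes had 5 of 21 measured members higher, or 2 with the level at the 75th percentile, and 1 lower. Casp1, the inflammasome caspase gene, read 623 against 37.6 (16.6-fold higher) and Casp4 259.6 against 22.5 (11.5-fold higher). Casp8, of death receptor signalling, was lower, at 264 against 658 (2.49-fold lower). In the BCL2 family Pmaip1, encoding the death promoter NOXA, read 337 against 34.1 (9.89-fold higher), and Bcl2, encoding the survival factor, read 494 against 1395 (2.82-fold lower), with all 5 probe sets below 0. Interferon-stimulated genes had 5 of 38 higher and 1 lower, or 2 and 0 with an offset of 32, and a median of 0.09. Over all measured genes 8.05% were higher and 5.56% lower. Gbp3, encoding an interferon-induced GTPase, read 2982 against 753 (3.96-fold higher) and Oas2, encoding an antiviral enzyme, 17.0 against 52.1 (3.06-fold lower).

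**Figure D4:**
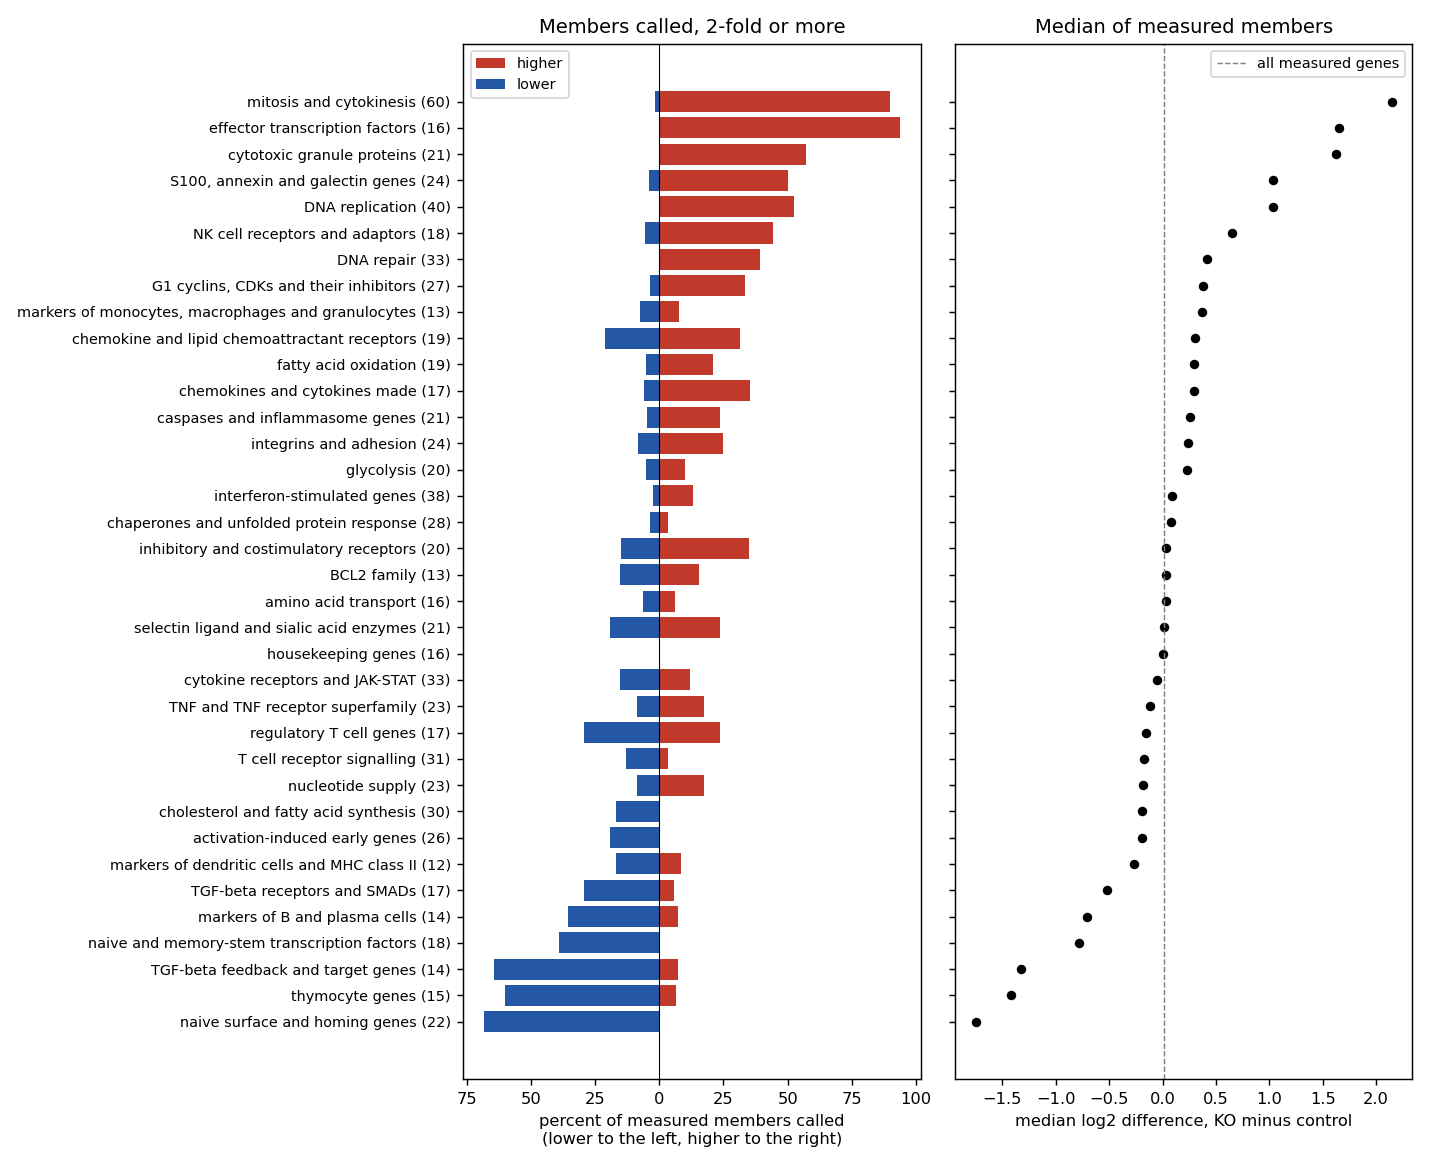
Left, percent of measured members of each gene list called higher (red, to the right) or lower (blue, to the left); right, the median log2 difference of measured members, with the median of all measured genes dashed. The number of measured members is in parentheses, lists with under 10 and 1 further list are left out, and medians run from -1.75 for naive surface genes to 2.15 for mitosis genes.

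Markers of other cells were checked as whole lists. Summed intensities cover every list member on the array, those below the level included. Of 9 measured markers of CD4, innate-like and γδ T cells 2 were higher and none lower, with summed intensities of 4746 in KO and 2816 in control. The higher ones were Maf, a transcription factor gene, at 2184 against 879 (2.49-fold higher), and Cxcr5, at 164 against 63.8 (2.58-fold higher). Of 14 measured markers of B and plasma cells 5 were lower, or 3 with the level at the 75th percentile, and 1 was higher, with summed intensities of 1491 in KO and 2708 in control. Ms4a1, encoding CD20, read 76.7 against 212 (2.76-fold lower), while Cd79a and Pax5 were below the level on both arrays. Markers of monocytes, macrophages and granulocytes summed to 1337 and 929.8, and of 13 measured 1 was higher and 1 lower. Csf1r, a macrophage receptor gene, read 54.5 against 30.5 (1.79-fold higher), against 7666 on the NK1.1+ KO array. Of 12 measured markers of dendritic cells and MHC class II 1 was higher, Itgax, given above, and 2 were lower, with sums of 968 and 1378. The lower member with the largest difference was Ccr9, at 36.9 against 293, which also stands among the thymocyte genes above. Of 3 measured stromal, endothelial and liver markers none was higher and 1 was lower, with sums of 140.1 and 189.8. Of 5 measured erythroid and platelet markers 2 were lower, and the 16 on the array summed to 765 and 979. That sum lacks the probe sets shared by several haemoglobin genes, which read 55.4 against 850.0 for the β chains and 11.6 against 109 for the α chains. Regulatory T cell genes went both ways, with 4 higher and 5 lower of 17 measured and sums of 8194 and 6114. Foxp3, which defines these cells, read 33.3 against 97.1 (2.92-fold lower), and Nrp1 read 625 against 245 (2.56-fold higher). The part of these cells in the other differences was not tested. In such bulk samples, fewer cells of a type and less RNA per cell cannot be told apart.

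Genes next to each other in the RefSeq order were sometimes called together. Among 5452 adjacent pairs of measured genes, 57 were both higher (1.05%), 32 both lower (0.587%) and 40 opposite (0.734%). Over all measured genes 8.05% were higher and 5.56% lower, so some such pairs arise between unrelated genes. How many was not computed. There were 9 runs of 3 or more. The granzyme run on chromosome 13 held Gzma, Gzmk and Esm1, the last an endothelial proteoglycan gene, at 275 against 10.3 (26.8-fold higher). On the same chromosome lay Serpinb6b, Serpinb9 and Serpinb9b, with Serpinb9b at 128 against 6.75 (at least 13.2-fold higher), and Naip2, Naip5 and Naip6, which encode sensors of bacterial proteins, with Naip5 at 68.2 against 16.02 (4.26-fold higher). The longest run, on chromosome 4, held Xkr8, Smpdl3b, Rpa2, Themis2 and Ppp1r8, with Smpdl3b, a lipid-modulating phosphodiesterase gene, at 364 against 5.64 (at least 37.7-fold higher). Ppp1r8 left that run when the probe set was chosen on the 2 arrays alone, at a log2 difference of 0.56. On chromosome 7, Ifitm1, Ifitm2 and Ifitm3, encoding interferon-induced membrane proteins, were all higher and dim, with Ifitm3 at 55.0 against 16.002 (3.43-fold higher), and on chromosome 11 Tk1, Afmid and Birc5 were higher. Of the lower runs, the one on chromosome 5 held Cnga1, Nipal1, Txk and Tec, of which Txk and Tec encode kinases of one family and read 198 against 643 (3.25-fold lower) and 101 against 328 (3.24-fold lower). Chromosome 15 held Basp1, Myo10 and Retreg1, and chromosome 3 the genes 1110032F04Rik, Ift80 and Smc4, with Ift80, of cilia, at 102 against 819 (8.02-fold lower). Probe sets of near-identical neighbours such as Naip5 and Naip6 may read each other's RNA.

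Further genes with large differences were these. Among the higher ones, Plek, encoding the protein kinase C substrate pleckstrin, read 2489 against 145 (17.2-fold higher), Dock5, encoding a Rac activator, 286 against 12.5 (22.9-fold higher), Alcam, an adhesion gene, 327 against 22.4 (14.6-fold higher) and Tox2, encoding a relative of the factor TOX, 3557 against 284 (12.5-fold higher). Baiap3, which acts in vesicle release, read 465 against 18.7 (24.8-fold higher), and Apobec2 read 230.2 against 9.94 (23.2-fold higher), although its second probe set differed by 0.36 on the log2 scale. Measured in KO cells only were Ccl3, Gzmk and Smpdl3b, given above, and Hip1, an endocytosis gene, at 149 against 6.41 (at least 15.4-fold higher), whose second measured probe set, of 5 in all, differed by 0.67 on the log2 scale. Among the lower ones, Tdrp read 63.4 against 973 (15.4-fold lower), Als2cl 22.6 against 325 (14.4-fold lower), Gpr83, a receptor gene of regulatory T cells, 26.8 against 285 (10.6-fold lower) and Ttc28 35.5 against 359 (10.1-fold lower). Dapl1 read 107 against 911 (8.51-fold lower) and St8sia1, encoding a sialyltransferase of gangliosides, 27.7 against 237 (8.57-fold lower). Measured in control cells only were Lypd6b, at 6.87 against 145 (at least 15.0-fold lower), Arhgap29 at 6.80 against 128 (at least 13.3-fold lower) in its only measured probe set of 3, and Adh1, an alcohol dehydrogenase gene, at 8.37 against 109 (at least 11.3-fold lower).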

How the data were processed

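The table that the authors deposited holds linear intensity values of 45101 probe sets, 64 of them array controls. They were made with GCRMA 1.1.3, per the submitters' processing notes, a method that corrects background, normalizes arrays and combines probes; its settings and the genome build are not given in the sources. Of the probe sets, 34945 had 1 gene symbol in the platform annotation, 932 several and 9160 none. Entrez identifiers of 34741 matched the RefSeq gene table of GRCm38.p6, and 0 symbols changed. Where several single-symbol probe sets read a gene, the one highest on average over all 3 arrays was taken. All columns belonged to a sample.

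Log2 was taken of the intensity after raising values below the measured level to it, and a difference of 1 (2-fold) was called. The members, the 40 lists (1121 names, 1024 on the array) and the named genes rule were chosen with earlier results of these data known. The level was meant as the 95th percentile over probe sets of lens crystallins, keratin-associated proteins and the olfactory, taste and vomeronasal receptors. Which symbols count as lens crystallins was decided after values and calls had been seen: 9 definitions were tried, and 1 of them was for a time preferred because its counts lay closest to an earlier analysis of these data. The literal one, lens crystallins without the Crybg genes, was then kept, with a level of 9.66; the other 2 for which calls were computed gave 10.3 and 11.5. Of the 38 families defined by symbol patterns, those of integrins and S100 proteins were narrowed, and those of nucleolar assembly genes and RNA polymerase I and III were added, after values were seen.

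Named genes were the 20 largest differences each way measured on both arrays and 10 each way as bounds, with established symbols and probe sets agreeing in direction, 4 per list or family, and runs of 3 or more neighbours; not all are printed. With 1 array per group no test was possible, and precision is limited by the number of arrays. The calling rule was run on simulated data with preset noise and planted differences larger than 2-fold, in genes well above the level. That run checks the code, and it does not measure how reliable calls near 2-fold or near the level are. Python 3.11.15, pandas 2.3.3, numpy 2.4.6 and matplotlib 3.10.9 were used.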

Additional observations from a re-analysis of the deposited data

Results flagged for a closer look

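Signal was seen in probe sets that the gene comparison did not use. Of 9160 probe sets with no gene symbol 3006 were measured on either array, and 138 (4.59%) were higher in receptor-deficient cells and 148 (4.92%) lower. Among those with the largest differences, 1 such probe set read 954 against 37.2 and another 128 against 1373. Of 932 probe sets with several symbols 562 were measured, and 34 (6.05%) were higher and 26 (4.63%) lower. The probe set shared by Lilrb4a and Lilr4b, inhibitory immunoglobulin-like receptors, read 909 against 17.4. Those of the adult haemoglobin genes were lower, at 55.4 against 850.0 for the β chains and 11.6 against 109 for the α chains. The probe set shared by Trgv4 and Trgv2, variable segments of the T cell receptor γ chain, read 21.5 against 163. These probe sets were chosen after their values were seen.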

How the results depend on the processing

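The counts of 809 higher and 559 lower genes became 494 and 312 when the level was set to the 75th percentile over all probe sets (54.0), 473 and 238 with an offset of 32 and no level, 533 and 356 when a gene's probe sets were averaged, dim ones included, and 137 and 65 where 2 or more measured probe sets all had to reach 2-fold, which fewer genes can meet. Under the remaining settings they ran from 653 to 874 higher, and from 532 to 600 lower; with the 2 definitions of the level added after the data were seen they were 786 and 536, and 799 and 548. Quantile normalization and centring shifted the median by -0.011 and -0.008 on the log2 scale and left 58.1% and 58.4% of calls higher, against 59.1%. No called gene among 394 looked at changed sign in an alternative run that gave it a value. Of the genes looked at that had a value, called or not, 70 of 387 dropped under 2-fold when probe sets were averaged. With the higher level 41 of 337 did so, and with the offset 77 of 390. A further 37 called genes had no value with the higher level, among them Havcr2, Oas2, Eif2s3y, Naip6, Myo10, Xkr8, Ifitm1, Ifitm2, Il12rb1, Smurf1 and Tyrobp. Genes that had one and lost their call there included Gpr15, Zeb2, Ccr6, Klre1, Cdc25c, Cdkn1a, Msmo1, Naip2, Naip5, Noc3l, Themis2, Ifitm3, Foxp3 and Rras. Averages include probe sets below the level, which draw a difference towards 0. Genes that lost their call when averaged included Tgfbr2, Irf4, Dut, Rrm1, Chek1, Dkc1, Klf13, Nr4a3, Smurf1 and Rpa2. All probe sets of Dkc1 and Rpa2 were measured. In Tgfbr2, Rrm1 and Klf13 the mean of measured probe sets alone was also short of 2-fold, at log2 differences of -0.63, 0.61 and -0.89. With the offset, those that lost their call included Havcr2, Myc, Oas2, Rpl12, Irf4, Batf, Lef1, Il12rb1, Tyrobp and Nop14. Hmmr lost it with unsuffixed probe sets alone. The 54 higher mitosis genes were 37 at the fewest, with unsuffixed probe sets alone, the 21 higher replication genes 10, with the mean of probe sets, and the 6 lower nucleolar genes 2, with the offset. Genes without an unsuffixed probe set drop out when only those are used, so such counts can fall without a gene failing 2-fold. Of the genes looked at, 336 had a value then, and 12 of these dropped under 2-fold. Leaving out an array was not possible. No paired analysis was possible because each group has 1 array.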

Other observations

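Genes of chromosome X had a higher share of higher calls than those of any autosome with 20 or more measured genes, 33 of 294 (11.2%), and a lower share of lower calls, 10 of 294 (3.40%). The autosomes ranged from 5.16% higher on chromosome 16 to 9.70% on chromosome 6. Xist, the RNA that silences 1 X chromosome in females, was bright on both arrays, at 5490.1 against 5154 (1.07-fold higher). The Y-linked gene Eif2s3y read 25.7 against 6.85 (at least 2.66-fold higher), in its only measured probe set of 2. The sources used here do not give the sex of the mice, and its part in these values was not tested.

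Of 8 GIMAP GTPase genes, which act in lymphocyte survival, 2 were higher, none was lower and 4 lay below 0, at a median log2 difference of 0.10. Gimap7 read 2559 against 725 (3.53-fold higher) and Gimap5 329 against 145 (2.27-fold higher), while the bright member Gimap4 read 16265 against 13966 (1.16-fold higher). Of 12 measured Krüppel-like factor genes 4 were higher and 1 lower, or 2 and 0 when probe sets were averaged. Klf10, a gene known to be induced by TGF-β, read 205 against 73.1 (2.80-fold higher), and Klf13 read 715 against 1688 (2.36-fold lower).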
